A study of Rattus norvegicus with 12 samples.

Results

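Small RNA was sequenced from aortas of female spontaneously hypertensive rats (SHR), an inbred strain whose blood pressure rises with age. The series holds 6 libraries with the treatment label EWH and 6 control libraries from rats given saline, and its title speaks of egg white-derived peptides and lowered blood pressure. The labels used here give no dose, duration or age, and they do not say whether the libraries of a group came from separate animals. P-values therefore measure the spread between these libraries, and that spread could be technical. The subject here is the miR-103/107 family, taken as each listed row whose name without arm and copy is miR-103 or miR-107. This rule gave 3 of the 641 listed mature miRNAs, namely rno-miR-103-3p, rno-miR-107-3p and rno-miR-103-1-5p, written below without the rat prefix. The question the design puts to them is whether their level in the aorta differed between EWH and control rats.

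MiR-103 and miR-107 are vertebrate miRNAs encoded inside pantothenate kinase (Pank) genes, whose enzymes carry out the first step of coenzyme A synthesis. A miRNA guides the silencing complex to messenger RNAs mainly through its seed, the bases next to its 5′ end. In mice the family is known for lowering insulin sensitivity through caveolin-1, a structural protein of the membrane pits called caveolae that is abundant in endothelium and fat, and in human cells it targets the miRNA-processing enzyme Dicer. MiR-103 is also commonly taken as a stable reference miRNA when other miRNAs are measured by PCR. Host gene messengers and target messengers were not measured in these libraries.

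Both 3p members matched RefSeq's mature miRNA table (assembly GRCr8), and they are shown because they differ at a single base. Capitals mark the seed, bases 2 to 8, counted from 1 at the 5′ end.
miR-103-3p: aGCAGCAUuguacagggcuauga
miR-107-3p: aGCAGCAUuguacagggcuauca
The substitution from miR-103-3p to miR-107-3p is G22C, in sequences of 23 bases each. The first 21 bases are identical, so a read that ends before base 22 has the same letters in both members. Among 693 mature sequences of the table, only these 2 have this seed. How the authors assigned shortened or multiply matching reads is not given in the sources used here, and the split between the members depends on it.

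RefSeq places the hairpins in GRCr8 at chr1:241750418-241750504 on the minus strand (Mir107), chr3:138963227-138963312 on the plus strand (Mir103a2) and chr10:20748474-20748559 on the plus strand (Mir103a1). Each lies within the span of a protein-coding gene on the same strand, Pank1 for Mir107, Pank2 for Mir103a2 and Pank3 for Mir103a1. Exons and introns were not resolved in the gene table used here. The hairpins are shown to place the 3p member, in capitals, within each.
Mir107: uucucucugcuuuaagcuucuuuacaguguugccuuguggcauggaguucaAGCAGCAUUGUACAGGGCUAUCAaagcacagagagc
Mir103a2: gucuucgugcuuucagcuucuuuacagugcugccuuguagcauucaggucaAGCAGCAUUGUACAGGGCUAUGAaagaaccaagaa
Mir103a1: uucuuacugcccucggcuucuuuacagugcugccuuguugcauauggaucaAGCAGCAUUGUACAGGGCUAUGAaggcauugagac
The same miR-103-3p sequence stands in both Mir103a hairpins, so its reads cannot be divided between Pank2 and Pank3. Outside it the hairpins differ more, with 17 edits between Mir103a1 and Mir103a2, 15 between Mir103a2 and Mir107 and 17 between Mir103a1 and Mir107.

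Values are in rpm, reads scaled to a common library total, with original totals of 23887799 to 24772944 reads, so that 1 read was worth 0.0404 to 0.0419 rpm. The listed miRNAs held 78.0% to 80.6% of that total in EWH and 76.4% to 79.8% in control libraries. Known aortic miRNAs were present, with smooth muscle miR-143 and miR-145 summing to 331968 to 428677 rpm in EWH and 347013 to 426858 rpm in control, and endothelial miR-126a to 4264 to 6913 rpm in EWH and 3290 to 12305 rpm in control. Control 1 stood apart from the other controls in 32 of 303 tested miRNAs, more than any other library did, by a test for a lone extreme value (Dixon). Results that rest on it are therefore given with and without it where both were computed.

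MiR-103-3p was the more abundant member in all 12 libraries and ranked 65th of the 641 listed miRNAs by mean level, at 310.02 rpm. It read 238, 207.9, 373, 298, 303 and 285 rpm in EWH 1 to 6, and 422, 333, 339, 299, 375.03 and 246 rpm in control 1 to 6. The groups overlapped, with EWH 1 and EWH 2 below each control library and only EWH 3 above the control median. The mean was 284 ± 57.2 rpm in EWH and 336 ± 60.5 rpm in control (SD, n = 6 each). In limma, the log2 difference of EWH minus control on log2(rpm + 1) was −0.24 (SE 0.16, 95% confidence interval −0.59 to 0.10), or 0.845-fold, with Benjamini-Hochberg adjusted p = 0.40 over 303 tested miRNAs. The difference thus did not pass the threshold of 0.05, and the interval holds values on both sides of 0. Without EWH 2 the log2 difference was −0.16, and without control 1 it was −0.17 (SE 0.16, limma Benjamini-Hochberg adjusted p = 0.551). In whole-tissue RNA, fewer cells of a type and less of the miRNA per cell cannot be told apart.

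MiR-107-3p ranked 109th by mean level, at 54.1 rpm. It read 66.6, 50.1, 35.0, 57.1, 66.4 and 26.1 rpm in EWH 1 to 6, and 160.1, 40.8, 39.6, 31.5, 49.5 and 26.9 rpm in control 1 to 6. Control 1 lay far above all other libraries, and EWH 1, 2, 4 and 5 lay above each of control 2 to 6, while EWH 3 and 6 did not. The mean was 50.2 ± 16.7 rpm in EWH and 58.1 ± 50.6 rpm in control (SD, n = 6 each), whereas the median was 53.6 rpm in EWH and 40.2 rpm in control. By limma the log2 difference was 0.01 (SE 0.40, 95% confidence interval −0.85 to 0.87), with Benjamini-Hochberg adjusted p = 0.987. Without control 1 the control mean was 37.7 ± 8.75 rpm (SD, n = 5), the log2 difference was 0.36 (SE 0.26) and limma's Benjamini-Hochberg adjusted p was 0.429. The sign for miR-107-3p was negative in 8 of the 12 fits that each left out 1 library, so no direction was established for it.

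Of the 2 tested members, limma called 0, beside 0 of all 303 tested miRNAs (0%) at a Benjamini-Hochberg adjusted p under 0.05. No member had an unadjusted limma p below 0.05 either, beside 70 of 303 tested miRNAs (23.1%), with 15.2% higher and 7.92% lower in EWH. Two-sided count tests on the recovered whole reads gave 40 calls in edgeR (13.2%) and 63 in DESeq2 (20.8%), none of them a member. Without control 1, limma called 0 (0%), edgeR 0 (0%) and DESeq2 60 (19.8%) of 303, again with no member among them. For miR-103-3p the Benjamini-Hochberg adjusted p was 0.376 in edgeR and 0.373 in DESeq2, and for miR-107-3p it was 0.879 in edgeR and 0.857 in DESeq2. The groups overlapped for both members, while they did not overlap for 5 of 303 tested miRNAs (1.65%).

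**Figure D1:**
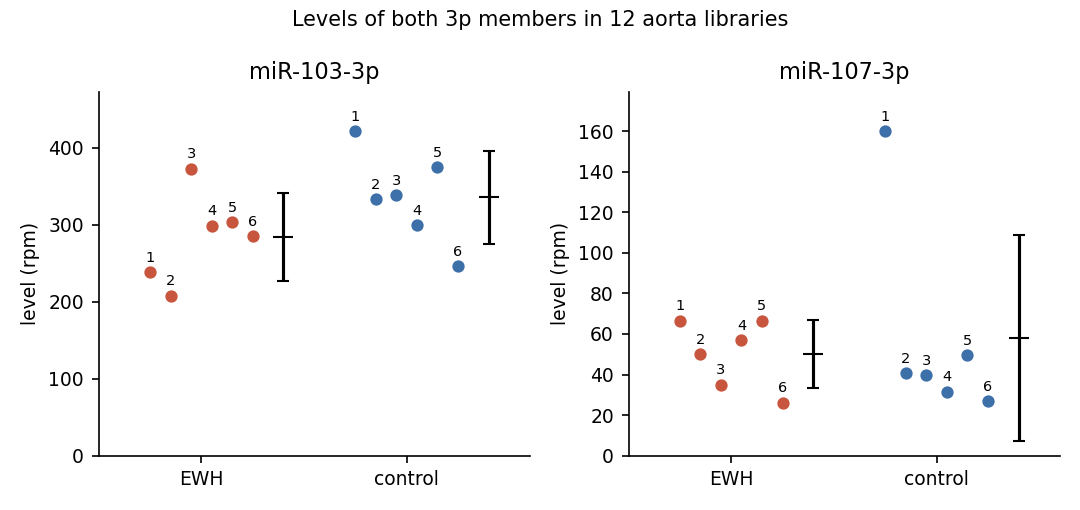
Level of miR-103-3p (left panel) and miR-107-3p (right panel) in rpm, with 1 point for each library, numbered by replicate, and the mean with its SD as a black bar. The groups overlap in both panels, and control 1 stands far above the rest for miR-107-3p at 160.1 rpm.

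The opposite arm was almost undetected. MiR-103-1-5p, from the 5′ side of the Mir103a1 hairpin, had 1 read in EWH 4, 1 read in control 2 and 0 in the other 10 libraries, where a count of 0 allows up to 0.121 to 0.126 rpm (3 reads, counting error only). Over all libraries this came to 2 of the 90596 reads of miR-103-1-5p and miR-103-3p together, or 0.00221% (95% exact Clopper-Pearson interval 0.000267% to 0.00797%). This is not the arm share of a single hairpin, since the 3p reads can come from both Mir103a1 and Mir103a2 and the 5p row from Mir103a1 alone. It did not pass the filter of at least 1 rpm in at least 6 libraries, so its arm ratio was not tested, and no fold is given for it.

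The share of miR-107-3p within the reads of both 3p members varied between libraries by more than counting error. It was 21.8%, 19.4%, 8.58%, 16.05%, 17.97% and 8.39% in EWH 1 to 6, and 27.5%, 10.9%, 10.5%, 9.52%, 11.7% and 9.86% in control 1 to 6. Control 2 to 6 lay close together, EWH 1, 2, 4 and 5 lay above all of them, and EWH 3 and 6 lay below all of them. The 95% exact intervals, which cover counting error only, ran from 15.3% to 16.8% in EWH 4, the lowest of those 4 EWH libraries, and from 11.04% to 12.3% in control 5, the highest of those 5 controls. The mean share was 15.4% ± 5.67 in EWH and 13.3% ± 6.99 in control (SD, n = 6 each), and 10.5% ± 0.846 in control without control 1 (SD, n = 5). Both members together summed to 335 ± 53.5 rpm in EWH and 394 ± 105 rpm in control (SD, n = 6 each), and without control 1 to 356 ± 57.0 rpm in control (SD, n = 5).

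**Figure D2:**
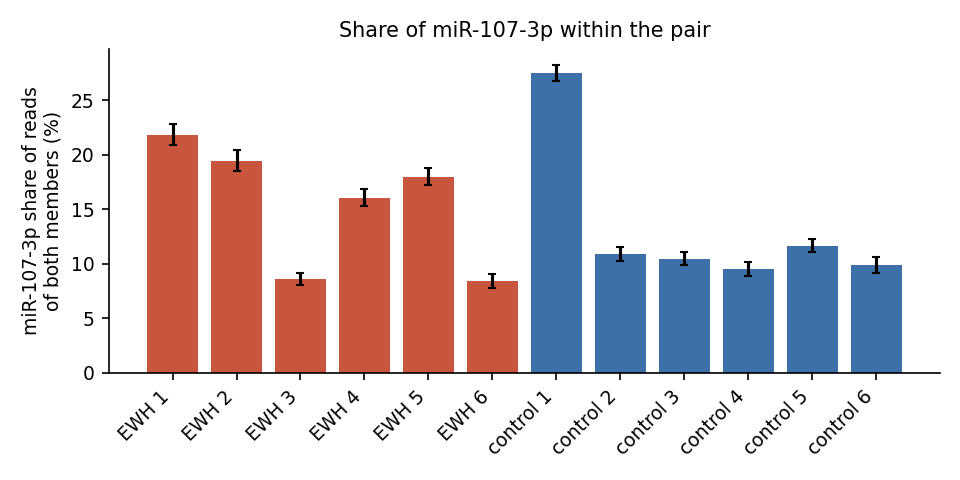
Share of miR-107-3p among the reads of miR-103-3p and miR-107-3p in each library, in percent, with EWH libraries on the left and control libraries on the right. Bars start at 0 and lines are 95% exact intervals for counting error, and control 1 has the highest share at 27.5%.

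Whether the members differed from each other in their response was asked through the log2 ratio of miR-107-3p over miR-103-3p in each library, with 1 rpm added to each. It averaged −2.53 ± 0.69 in EWH and −2.78 ± 0.69 in control (SD, n = 6 each). The difference of 0.26 did not pass the threshold in an exact permutation test, two-sided, over all 924 divisions into 6 and 6 (p = 0.535). Without control 1 the control mean was −3.06 ± 0.12 (SD, n = 5), the difference was 0.53, and the two-sided exact permutation p was 0.108. Of the 6 EWH libraries, 4 then lay above each control, against 0 with control 1 included.

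Across the 12 libraries the members showed little common movement. The correlation of their log2(rpm + 1) values was Pearson r = 0.33 (permutation p = 0.305, Benjamini-Hochberg adjusted p = 0.457) and Spearman rho = 0.14 (permutation p = 0.670, adjusted p = 0.803), over 3 relations computed. Without control 1 and EWH 2, the libraries farthest from the median of miR-103-3p, r was −0.01, and without control 1 alone it was −0.11. Within the 6 control libraries r was 0.85 (exact permutation p = 0.0292, adjusted p = 0.0875) and rho was 0.94 (exact permutation p = 0.0167, adjusted p = 0.050). Within the 6 EWH libraries r was −0.34 (exact permutation p = 0.511, adjusted p = 0.511) and rho was −0.14 (exact permutation p = 0.803, adjusted p = 0.803). Without control 1 the control group holds 5 libraries, too few for a correlation here. From high to low they ran control 5, 3, 2, 4 and 6 in miR-103-3p and control 5, 2, 3, 4 and 6 in miR-107-3p. In the control group control 1 was highest and control 6 lowest in both members, while EWH 3 was highest of its group in miR-103-3p and second lowest in miR-107-3p. No test was made of the difference between the correlations of the groups, and reads shared by near-identical sequences could add to either.

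**Figure D3:**
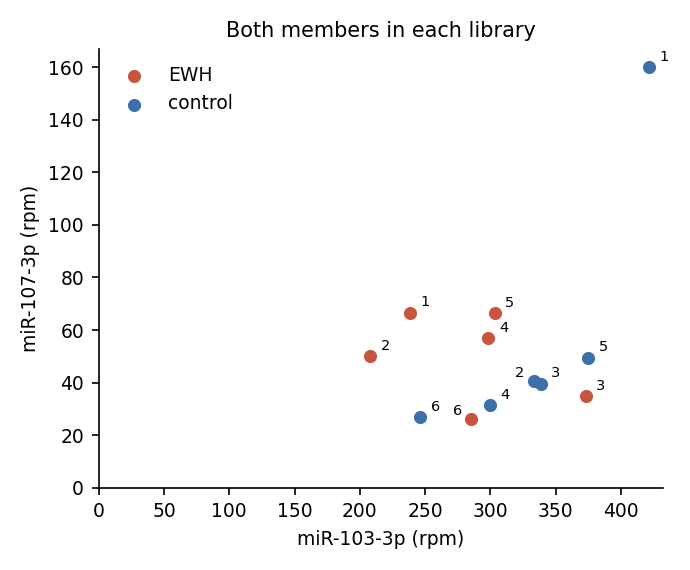
Level of miR-107-3p against that of miR-103-3p in rpm, with 1 point for each library, numbered by replicate, in EWH and control. Control 2 to 6 form a narrow rising band below control 1, and the EWH points scatter on both sides of it.

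The spread of miR-103-3p was moderate among tested miRNAs and that of miR-107-3p was wide. The SD of log2(rpm + 1) within groups was 0.28 for miR-103-3p, the 112th smallest of 303, and 0.74 for miR-107-3p, the 244th, beside a median of 0.33. By group the SD of miR-103-3p was 0.29 in EWH and 0.27 in control. That of miR-107-3p was 0.53 in EWH, against 0.90 in control and 0.33 in control without control 1. In control without control 1 the SD of miR-103-3p was 0.23, and the median SD of tested miRNAs was 0.28. The wide spread of miR-107-3p in control thus rested largely on control 1. Next to miR-103-3p in mean level stood miR-221-3p (334 rpm) and miR-378a-3p (301 rpm), and next to miR-107-3p stood miR-148a-5p (56.0 rpm) and miR-148a-3p (52.8 rpm).

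Control 1 also differed in other near-identical mature miRNAs, a comparison chosen after its miR-107-3p value was seen. There were 14 pairs of tested miRNAs of equal length that differ at 1 base and average at least 10 rpm each, and 1 rpm was added before each ratio. In 10 of the 14 pairs, the log2 ratio in control 1 lay outside the range of the other 11 libraries. Each other library was the extreme in 0 to 3 pairs. The pairs are not independent, since let-7a-5p and let-7c-5p recur among them. Let-7c-5p itself was low in control 1, at 11854 rpm against 20047 to 35808 rpm elsewhere. Pairs of unlike sequence were not counted, so the count is not shown to be particular to near-identical miRNAs. For miR-107-3p over miR-103-3p the log2 ratio was −1.39 in control 1, against −3.40 to −1.82 elsewhere. By deviation from the median of a pair over the 12 libraries, control 1 departed by 1.56 in this pair, by 2.31 in miR-196b-5p over miR-196a-5p and by 1.65 in miR-1b over miR-1-3p. For miR-196b-5p over miR-196a-5p the log2 ratio was 2.21 in control 1, against −0.28 to 0.36 elsewhere, and for miR-1b over miR-1-3p it was 3.70, against 1.20 to 3.32. MiR-196a-5p read 10.2 rpm in control 1, against 317 to 562 rpm elsewhere, and miR-196b-5p 50.9 rpm, against 356 to 494 rpm elsewhere. The departure of that pair thus came with low levels of both its members. In contrast, miR-103-3p and miR-107-3p were both at their highest in control 1. Among the 10 pairs outside the range, the ratio in control 1 moved towards equal levels for miR-107-3p over miR-103-3p and for miR-30e-5p over miR-30a-5p (−1.03 against −2.20 to −1.69). It did so too for let-7c-5p over let-7a-5p (0.03 against 0.63 to 1.13) and over let-7b-5p. The same held for miR-101b-3p over miR-101a-3p, miR-181d-5p over miR-181b-5p and miR-27b-3p over miR-27a-3p. The ratio moved away from equal levels for let-7f-5p over let-7a-5p (1.51 against 0.65 to 1.20), miR-1b over miR-1-3p and miR-196b-5p over miR-196a-5p. Among EWH libraries the spread of miR-107-3p over miR-103-3p (SD 0.69) was exceeded by that of miR-7b over miR-7a-5p (SD 1.23).

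**Figure D4:**
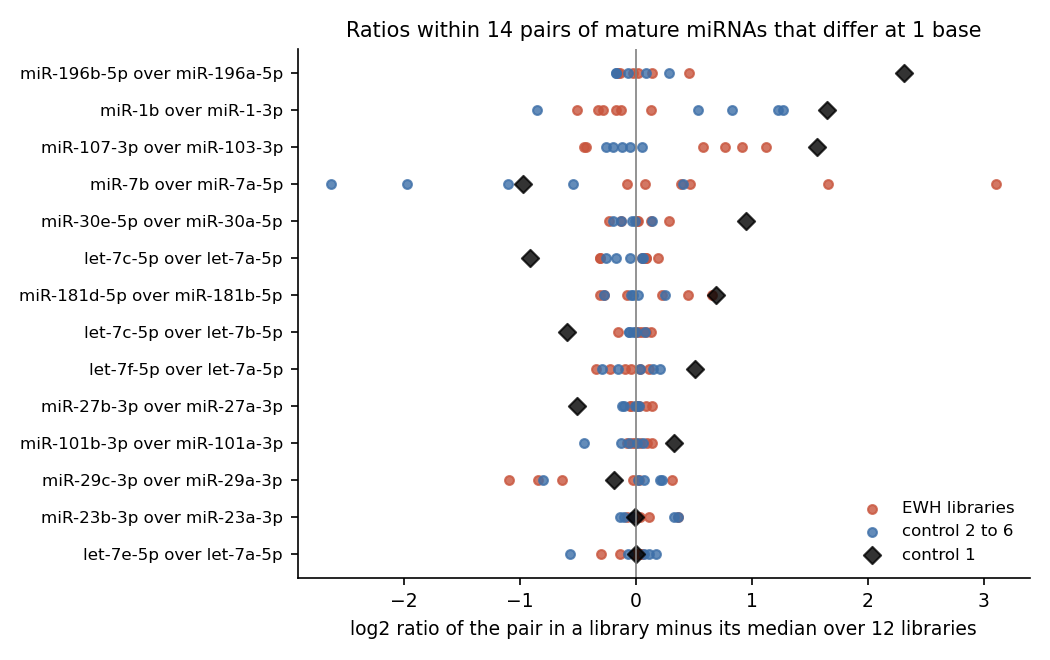
Log2 ratio of 14 pairs of mature miRNAs that differ at 1 base, as the deviation of each library from the median of that pair over 12 libraries, with control 1 as black diamonds. Control 1 is the extreme in 10 of the 14 pairs, and miR-107-3p over miR-103-3p is the pair with the third largest deviation of control 1.

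Lists of miRNAs known from other cells give context for control 1. The adipocyte list (miR-378a, miR-193a, miR-193b and miR-365, 4 of 7 entries tested) summed to 1631 rpm in control 1, against 121 to 610 rpm in the other 11 libraries. Endothelial miR-126a summed to 12305 rpm in control 1, against 3290 to 6913 rpm elsewhere. The leukocyte list (8 of 10 entries tested) summed to 305 rpm in control 1, against 136 to 254 rpm elsewhere, and the erythrocyte list (4 of 5 tested) to 80.4 rpm, against 107 to 385 rpm. Control 1 lay within the range of the other libraries for epithelium (609 rpm, against 60.5 to 718 rpm), for skeletal and cardiac muscle (589.7 rpm, against 428.7 to 1439 rpm), for neurons and glia (1014 rpm, against 595 to 1964 rpm) and for smooth muscle (347013 rpm, against 331968 to 428677 rpm). A sum can hide single entries. Of the leukocyte list miR-150-5p (209 rpm) and miR-155-5p (66.5 rpm) were highest in control 1, while each other tested entry lay inside its range. Among these, miR-142-3p read 14.9 rpm in control 1, and miR-142-5p (2.72 rpm) and miR-223-3p (1.06 rpm) were lowest there among control libraries. Of the epithelial list miR-203a-3p was highest in control 1 (572 rpm), while miR-200b-3p (8.69 rpm) lay inside its range. Of the muscle list miR-1-3p was lowest in control 1, at 201 rpm against 252 to 1216 rpm elsewhere. MiR-1b differs from miR-1-3p at 1 base, is more abundant and was not counted in that list. It read 2612 rpm in control 1, against 1734 to 4000 rpm elsewhere. No entry of these lists was at 0 in every library, and their part in the miR-107-3p value of control 1 was not tested.

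The miRNAs closest in pattern to each member were taken by Spearman's rho over the 12 libraries, among 181 other miRNAs averaging at least 10 rpm, as a description without a test. For miR-103-3p they were let-7g-5p (rho 0.90), miR-365-3p (0.85), miR-155-5p (0.83), miR-30c-5p (0.81) and miR-145-5p (0.73), where the median of all candidates was 0.16. Without control 1 these 5 ranked 1st, 4th, 6th, 3rd and 2nd, in the same order of names. MiR-155-5p belongs to the leukocyte list and miR-365-3p to the adipocyte list. The leukocyte list summed to 151 to 240.2 rpm in EWH and 136 to 305 rpm in control, and the adipocyte list to 135 to 448 rpm in EWH and 121 to 1631 rpm in control. Their part in the miR-103-3p level was not tested. MiR-145-5p is known from contractile smooth muscle, but its opposite arm miR-145-3p had the lowest rho with miR-103-3p of all 181 candidates (−0.80). For miR-107-3p the closest were miR-99b-5p (rho 0.76), miR-361-3p (0.58), miR-125a-5p (0.52), miR-30d-5p (0.50) and miR-450b-5p (0.49), beside a median of 0.06. Of these, miR-99b-5p still ranked 1st without control 1, and miR-30d-5p ranked 13th. All libraries are scaled to a total in which miR-143-3p is a large part, which these patterns share.

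The miR-15/16 relatives, known for restraining the cell cycle, were examined as an extended group that counts every arm of their hairpins. The 6 tested 5p arms are shown because they share the letters AGCAGC, in capitals, with the first bases of miR-103-3p and miR-107-3p, though shifted by 1 base, so that the seeds are not identical. Of 693 mature sequences in the table, 8 (1.15%) hold AGCAGC in their first 8 bases, both 3p members included.
miR-16-5p: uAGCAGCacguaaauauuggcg
miR-195-5p: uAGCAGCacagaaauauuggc
miR-497-5p: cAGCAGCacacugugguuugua
miR-15b-5p: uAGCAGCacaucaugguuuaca
miR-503-5p: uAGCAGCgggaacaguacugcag
miR-322-5p: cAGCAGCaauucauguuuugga
MiR-103-3p, at a mean of 310.02 rpm, stood above each of these 6. MiR-16-5p averaged 181 ± 28.1 rpm in EWH and 199 ± 11.95 rpm in control. MiR-195-5p averaged 136 ± 17.5 and miR-497-5p, from the same cluster, 33.7 ± 9.69 rpm in EWH, against 136.9 ± 21.7 and 39.8 ± 6.69 rpm in control (SD, n = 6 each). MiR-107-3p thus lay between miR-195-5p and miR-497-5p in mean level.

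The remaining 5p arms of the group were scarce. MiR-15b-5p averaged 3.35 ± 1.06 rpm in EWH and 4.57 ± 1.03 rpm in control (SD, n = 6 each). MiR-503-5p averaged 2.04 ± 0.600 rpm in EWH and 4.15 ± 4.06 rpm in control, and miR-322-5p, from the same cluster, 2.39 ± 0.882 rpm in EWH and 3.26 ± 1.85 rpm in control (SD, n = 6 each). Control 1 was the highest library for both, at 12.3 and 6.91 rpm. Of 14 listed entries of the group 10 were tested, the 6 arms shown and 4 3p arms without AGCAGC (miR-195-3p, miR-322-3p, miR-503-3p and miR-15b-3p). Limma, edgeR and DESeq2 each called 0, and 0 were under an unadjusted limma p of 0.05. For the 6 arms with AGCAGC the log2 mean was lower in EWH in 6 of 6 (median −0.27), beside 182 of 303 lower and a median of −0.06 over all tested miRNAs. It was lower in 5 of 6 without control 1 (median −0.16), in 5 of 6 under median-of-ratios scaling (−0.24), in 6 of 6 under quantile normalization (−0.37) and in 4 of 6 when libraries were scaled to common reference miRNAs (−0.02). That last scaling shifted log2(rpm + 1) of all miRNAs of a library by the same amount, and 64 of 303 tested miRNAs were then lower, with a median of 0.19. With the 3p arms included, 10 of 10 were lower (median −0.20), 6 of 10 without control 1 (median −0.10), 10 of 10 under quantile normalization (median −0.27) and 5 of 10 under reference scaling (median 0.05).

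Because miR-103 is itself used as a reference, it was set beside other miRNAs in that use, among them miR-191a, miR-423, miR-425, miR-186 and miR-484. Limma called 0 of the 11 tested entries of the 15 listed, edgeR 1 and DESeq2 2, beside 0%, 13.2% and 20.8% of all tested miRNAs by these tools in that order. MiR-186-5p, miR-93-5p and miR-484, named here after their values were seen, were under an unadjusted limma p of 0.05, all 3 lower in EWH. MiR-16-5p belongs to this list and to the extended group. The log2 mean was lower in EWH for 11 of 11 (median −0.15), and for 10 of 11 both without control 1 and under median-of-ratios scaling. MiR-191a-5p averaged 2407 ± 435 rpm in EWH and 2582 ± 317 rpm in control, miR-423-3p 385 ± 37.4 rpm in EWH and 419 ± 59.3 rpm in control, and miR-25-3p 371 ± 53.3 rpm in EWH and 406 ± 61.9 rpm in control (SD, n = 6 each). When libraries were scaled to this list, the median difference of all tested miRNAs moved by 0.25 on the log2 scale. The log2 difference of miR-103-3p was then 0.01 (SE 0.17) and that of miR-107-3p 0.27 (SE 0.38), by limma. The lower mean of miR-103-3p in EWH thus held in rpm but not relative to the mean log2 level of these 11 entries. That mean weighs each entry alike, and miR-484 (−0.82) and miR-93-5p (−0.69) had the largest log2 differences in it. The scaling was not repeated without them.

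**Figure D5:**
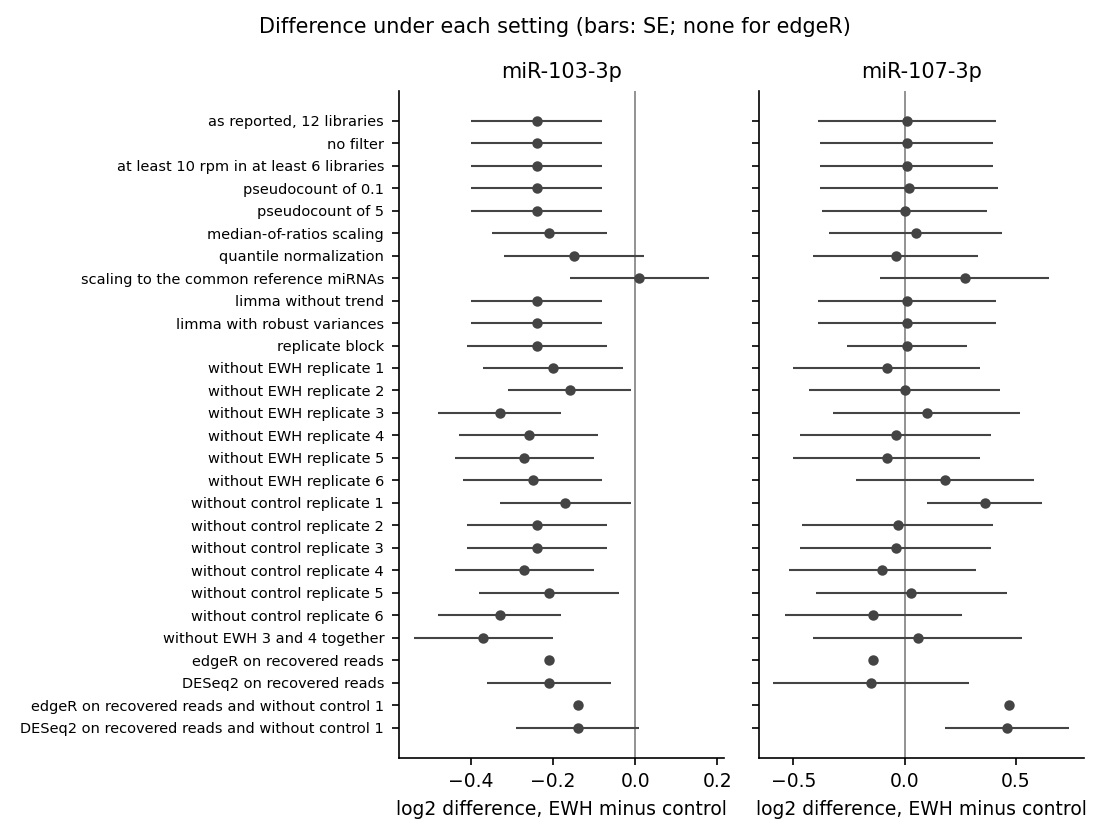
Log2 difference of EWH minus control for miR-103-3p (left panel) and miR-107-3p (right panel) under each setting, with the standard error as a bar (none for edgeR). The values of miR-103-3p run from −0.37 to 0.01, and those of miR-107-3p lie on both sides of 0, from −0.15 to 0.47.

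Other miRNAs tied to the functions of the family gave no limma call either. Of the insulin and lipid metabolism list 19 of 27 entries were tested, limma called 0, edgeR 2 and DESeq2 4, beside 0%, 13.2% and 20.8% of all tested miRNAs in that order, so these counts stood near the overall shares. Under an unadjusted limma p of 0.05 were 1 higher in EWH (miR-370-3p) and 4 lower (miR-27a-3p, miR-27a-5p, miR-29a-3p and miR-33-5p), of which all but miR-27a-3p were named after their values were seen, where 15.2% of all tested miRNAs were higher and 7.92% lower by the same rule. Its log2 means were lower for 14 and higher for 5, with a median of −0.25, but lower for 8 and higher for 11 (median 0.01) when scaled to the reference miRNAs. It was led by miR-143-3p, at 383398 ± 36932 rpm in EWH and 395202 ± 31339 rpm in control, and miR-27a-3p averaged 6623 ± 745 rpm in EWH and 7879 ± 1076 rpm in control (SD, n = 6 each). Of the p53-linked list 7 of 13 entries were tested, limma, edgeR and DESeq2 each called 0, and 0 were under an unadjusted limma p of 0.05, with 6 lower (median −0.17), and 2 lower (median 0.09) under the reference scaling. Its leading member miR-145-5p averaged 1006 ± 211 rpm in EWH and 1138 ± 282 rpm in control (SD, n = 6 each).

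The lists for other cells held no limma call, while DESeq2 called 5 of the neuron and glia list, 3 of the epithelial list and 1 of the muscle list, and edgeR 3, 2 and 0 in that order. Over all tested miRNAs limma called 0%, DESeq2 20.8% and edgeR 13.2%. The median log2 difference was 0.01 for erythrocytes (4 tested), −0.22 for leukocytes (8), −0.54 for adipocytes (4), −0.14 for skeletal and cardiac muscle (5), 1.47 for neurons and glia (7) and −0.72 for epithelium (6). Some of these medians depended on which miRNAs or libraries entered. For neurons and glia the median was 0.37 with no filter (16 entries) and 0.90 without EWH 3 and 4. Under the filter of 10 rpm it was 0.34 for skeletal and cardiac muscle (3 entries) and 0.11 for epithelium (2), and for epithelium it was −1.58 in edgeR and −1.59 in DESeq2. Without control 1 it was −0.06 for adipocytes and −0.29 for erythrocytes. It was −0.11 for smooth muscle (4 tested) and −0.13 for endothelium (2), the last turning to 0.06 without control 1. Scaled to the reference miRNAs it was positive for leukocytes (0.03), muscle (0.11), smooth muscle (0.15) and endothelium (0.12). An unadjusted limma p below 0.05 was found for 5 of the 7 tested neuron and glia entries, all higher in EWH. These were both arms of miR-9a and of miR-338, and miR-129-5p. By the same rule 15.2% of all tested miRNAs were higher and 7.92% lower. The other tested neuron and glia entries had lower log2 means in EWH, namely miR-128-3p (−0.13), the most abundant of that list, and miR-219a-1-3p (−0.21). An unadjusted limma p below 0.05 was also found for miR-365-3p of the adipocyte list and miR-200a-3p of the epithelial list, both lower. It was found as well for miR-1-3p of the muscle list, higher in EWH. Of that list miR-206-3p also had a higher log2 mean (0.34), while miR-499-5p (−0.60), miR-133a-3p (−0.14) and miR-133b-3p (−0.21) had lower ones. The log2 ratio of miR-1b, not in the list, over miR-1-3p averaged 1.84 in EWH and 2.83 in control. The part of these lists in the levels of the members was not tested.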

How the data were processed

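The authors' deposited table lists 641 mature miRNAs by 12 libraries in RPM, reads scaled to 1000000 per library, although it is named for TPM. Per the labels' protocols, Trizol RNA was ligated to adaptors on both ends and inserts of 15 to 35 nt were selected. The build was rn6, per the submitters' processing notes. Aligner, counter and annotation: not given in the sources used here. Dividing by the smallest step of each library gave whole reads for 100% of values (tolerance 0.01 read). Reads carried no molecular identifiers in these sources, so intervals cover counting error only.

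Columns were mapped through each sample's description and groups through titles. A miRNA was tested if 6 or more libraries reached 1 rpm (303), on log2(rpm + 1), a scale that understates changes of low miRNAs, by a two-sided limma test with trend (version 3.58.1, R 4.3.3) and Benjamini-Hochberg adjustment. EdgeR 4.0.16 and DESeq2 1.42.0, on the recovered reads, and other filters, pseudocounts, scalings, the replicate block and left-out libraries were alternatives, and fits of edgeR and DESeq2 without control 1 were added after seeing the data. Ratios were tested by exact permutation and the pooled correlation with 100000 resamples (Python 3.11.15, scipy 1.17.1). The procedures were tested on simulated counts.

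The members and the 12 lists were chosen with earlier results of these data known. Named were all members, the 5 miRNAs closest in Spearman's rho to each, neighbours in mean level, 5p arms of the extended seed group and up to 3 abundant members of each other list, not all of which are printed. Further names were picked with their values known. RefSeq's tables (GRCr8) gave sequences for 581 of 641 identifiers and 2 of 3 members.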

Additional observations from a re-analysis of the deposited data

Results flagged for a closer look

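A library was marked where its gap to the nearest library of its group, divided by the range of the group, exceeded Dixon's 95% critical value. That value is 0.625 for 6 libraries. Of 96 groups of values examined, chance alone would mark about 1 in 20. Control 1 was marked for miR-107-3p at 160.1 rpm, for its share of the pair at 27.5% and for the log2 ratio of miR-107-3p over miR-103-3p at −1.39. MiR-103-3p was not marked in any library. Control 1 was also marked, always as the highest control, for miR-503-5p (12.3 rpm), miR-322-5p (6.91 rpm), miR-378a-3p (1321 rpm), miR-378a-5p (184 rpm), miR-193a-5p (88.7 rpm), miR-203a-3p (572 rpm), miR-126a-3p (12218 rpm) and miR-30d-5p (5793 rpm). Control 6 was marked as the highest for miR-25-3p (529.6 rpm), miR-192-5p (308 rpm) and miR-200b-3p (501 rpm), control 2 as the highest for miR-142-3p (36.5 rpm) and EWH 2 as the lowest for miR-125a-5p (5290.1 rpm).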

How the results depend on the processing

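MiR-103-3p stayed uncalled in all 27 alternatives (Benjamini-Hochberg adjusted p 0.265 to 0.997, limma, edgeR or DESeq2) and kept a lower mean in EWH in 26, the exception being scaling to the reference miRNAs (0.01). With each library left out its log2 difference ran from −0.33 to −0.16. MiR-107-3p stayed uncalled in 27 too (adjusted p 0.269 to 0.999 by the same tools), but its sign turned under quantile normalization (−0.04), edgeR (−0.14) and DESeq2 (−0.15) and with libraries left out (−0.14 to 0.36). Without control 1 it was 0.47 in edgeR and 0.46 in DESeq2. The ratio of the members stayed uncalled and positive in 16 of 16 alternatives (0.11 to 0.53).

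The count of called miRNAs was 8 under quantile normalization, 56 under reference scaling, 40 in edgeR, 63 in DESeq2 and 60 in DESeq2 without control 1, 1 without EWH 3 and 4 together, and 0 to 24 with 1 library left out (24 without EWH 2, 1 without EWH 4, otherwise 0). Pearson's r was −0.34 in EWH and 0.85 in control, −0.01 without the 2 libraries farthest from the median, and −0.11 to 0.45 with 1 left out. Spearman's rho was −0.14 in EWH and 0.94 in control, and −0.12 to 0.35 with 1 left out. Under reference scaling the list medians were 0.10 (reference), 0.01 (insulin and lipid) and 0.09 (p53-linked), and with no filter the insulin and lipid median was −0.06. The cause of these shifts was not tested, apart from the common shift that reference scaling applies to all miRNAs of a library.

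With the replicate number as a block, the log2 differences were −0.24 for miR-103-3p, 0.01 for miR-107-3p and 0.26 for the ratio, none called. The numbers are not a pairing by the labels, and the deviations of same-numbered libraries correlated from −0.50 to 0.31. At 624 to 10382 reads a member and library, counting error is small beside the spread between libraries for both 3p members, while 2 reads in all leave the level of miR-103-1-5p undetermined.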

Other observations

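The miRNAs moving most opposite to each member over the 12 libraries, chosen after their values were seen, were miR-145-3p for miR-103-3p (Spearman's rho −0.80) and miR-196a-5p for miR-107-3p (−0.69). MiR-145-3p averaged 562 ± 75.3 rpm in EWH and 542 ± 81.2 rpm in control, and miR-196a-5p, encoded in Hox clusters, 460.3 ± 101 rpm in EWH and 368 ± 189 rpm in control (SD, n = 6 each). Control 1 read 10.2 rpm of miR-196a-5p, against 317 to 562 rpm in the other libraries, and was the highest library for miR-107-3p. The control mean of miR-196a-5p and its rho therefore rest partly on control 1, and neither is given without it. The opposite arm of miR-145-3p, miR-145-5p, was among the 5 closest to miR-103-3p (rho 0.73).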
